A study of Mus musculus with 32 samples.

Results

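Liver RNA of water-gavaged mice was compared between 7 mice killed once a hyperinsulinemic-euglycemic clamp had ended and 7 mice that were not clamped (basal). These 14 arrays, each of a separate mouse, were chosen by the titles of their samples from the 32 arrays of the study, and the comparison was made across 22180 genes. All animals were male C57BL/6NTac wild-type mice, 14 weeks old, that had been fasted for 10 h before the gavage. The study's other 18 arrays came from mice given palm oil at 2 g/kg in place of water (9 basal and 9 clamped). They share the estimate of spread behind the reported standard errors and adjusted p-values, and entered the choice of probe sets. Their own values are given only where the water-gavaged mice are set beside them.

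In a clamp, insulin is infused at a fixed rate while glucose is infused at whatever rate keeps blood glucose steady, so the liver is held in high insulin without a fall in glucose. In the fasted liver, low insulin leaves FOXO1 and glucagon signalling free to drive glucose output, and fatty acid oxidation runs high under PPARA. Insulin, acting through its receptor, IRS proteins and AKT, is known to lower glucose-6-phosphatase and IGF binding protein 1 and to raise lipogenic genes through SREBP-1c. The liver is also the main source of acute phase proteins, which it makes when interleukin 1 and interleukin 6 reach hepatocytes.

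The groups differed in more than insulin. Basal mice were killed under isoflurane 6 h after the gavage, with no catheter. Clamped mice had a jugular catheter placed under ketamine and xylazine 6 to 7 days earlier. From 6 h after the gavage they received labelled glucose for 110 min and then insulin at 15 pmol/kg/min, with 2-deoxyglucose at minute 120, and they were killed with ketamine and xylazine. Animal numbers did not overlap between the groups either, running from 16 to 32 in clamped and from 36 to 52 in basal mice. The same held for palm oil mice (15 to 31 clamped, 33 to 51 basal). What the numbers stand for is not stated. Insulin, surgery, infusion, handling, anaesthetic, the later time of death and whatever the animal numbers mark cannot be told apart in any value given here.

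Values are log2 expression values, in which a step of 1 is a 2-fold step in signal. Differences are clamped minus basal with their standard error (n = 7 and 7), and every adjusted p is from limma over all genes, with a threshold of 0.05. A gene is said to have risen or fallen where it passed that threshold. The first principal component of the 14 arrays held 33.8% of the variance and separated the groups (-33.1 to -11.7 in basal and 4.83 to 42.1 in clamped arrays), and clamped replicate 6 stood apart on the second (43.6). Basal mice differed among themselves in a technical measure. The interquartile range of the values was 3.14 to 3.26 in the 4 basal mice whose animal numbers were 44 or higher (replicates 4 to 7, called the high-numbered basal mice), 3.46 to 3.53 in the other 3 basal mice and 3.31 to 3.45 in clamped mice. Transcripts of pancreatic acinar cells averaged above 6 in 4 basal arrays and 1 clamped array (the acinar-rich arrays). Over 14 measured acinar markers the array means ran from 2.33 to 8.99 in basal and from 1.72 to 8.53 in clamped mice, with a difference of -3.00 (exact permutation test, two-sided p = 0.0507). Many counts that moved by over 1.5 times without the high-numbered basal mice or without the acinar-rich arrays are given both ways. Not all are, and the part of these arrays in the results was not tested beyond that.

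Between clamped and basal liver 1940 genes differed, 8.75% of those tested. The 1033 genes that rose made up 4.66% and the 907 that fell made up 4.09% of the genes tested. Every list count below is to be read against these shares. At an unadjusted p under 0.05 there were 4645 genes. Rises reached further than falls: 229 of the called genes rose by at least 2-fold, 47 by at least 4-fold and 13 by at least 8-fold, while 117 fell by at least 2-fold, 10 by at least 4-fold and 0 by at least 8-fold. Clamped and basal arrays did not overlap at all for 566 genes, 2.55% of those tested. The split between directions depended on centring, since 1275 of 1943 calls were rises after all arrays were shifted to 1 median. With the high-numbered basal mice left out, 908 genes passed, 351 up and 557 down, and 742 of them were among the 1940. Without the acinar-rich arrays of all 4 groups 993 passed, 541 up and 452 down, and 846 of them were among the 1940. Each of these fits left out 4 basal arrays of water-gavaged mice, so a call could be lost with little change in the difference. Of the 1940 genes, 1939 kept their direction without the high-numbered basal mice and 1940 without the acinar-rich arrays.

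**Figure D1:**
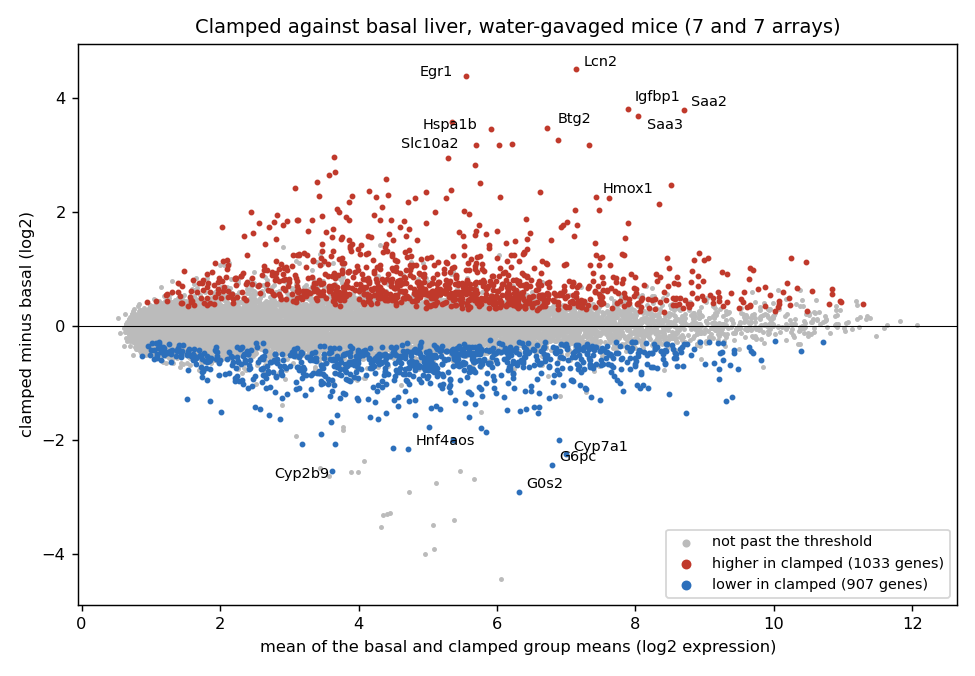
Difference between clamped and basal liver (log2, vertical) against the mean of the group means (log2 expression, horizontal) for 22180 genes, with 7 arrays a group. Points in red rose (1033 genes) and points in blue fell (907 genes); Lcn2 lies highest at 4.50 and G0s2 lowest among the called genes at -2.91. The grey points below -3 are genes that did not pass, and include the acinar gene Ctrb1 (-4.45).

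Genes that respond to insulin moved in both directions. The promoters of Igfbp1 and G6pc are shown first because they hold copies of the insulin response sequence, the short element through which FOXO proteins act on both genes, although the genes moved in opposite directions. Each window runs from 250 bases before to 50 bases after the transcription start in RefSeq (GRCm38.p6), Igfbp1 at chr11:7197537-7197836 and G6pc at chr11:101367466-101367765, both on the plus strand. Capitals mark TGTTTTG or TATTTTG on either strand, neither of which overlapped another match.
Igfbp1: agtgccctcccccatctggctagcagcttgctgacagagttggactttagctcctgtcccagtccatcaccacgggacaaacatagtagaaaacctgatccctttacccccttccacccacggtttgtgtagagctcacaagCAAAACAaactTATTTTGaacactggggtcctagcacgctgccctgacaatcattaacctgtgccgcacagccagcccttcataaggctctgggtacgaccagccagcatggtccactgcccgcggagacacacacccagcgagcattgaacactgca
G6pc: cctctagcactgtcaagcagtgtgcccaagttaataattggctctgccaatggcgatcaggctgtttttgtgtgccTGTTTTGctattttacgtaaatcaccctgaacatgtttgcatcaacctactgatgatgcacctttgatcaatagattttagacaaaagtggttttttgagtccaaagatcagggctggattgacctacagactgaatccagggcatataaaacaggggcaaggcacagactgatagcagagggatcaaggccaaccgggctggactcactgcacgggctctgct
Counting the first transcribed base as 0, the matches in Igfbp1 lie at -108 to -102 and -97 to -91 from the start, and in G6pc the match lies at -174 to -168. Among 20520 windows of 16918 measured genes, TGTTTTG was found in 5.17% and TATTTTG in 3.66%, so a match alone is common.

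Igfbp1, a secreted protein that binds insulin-like growth factors, had values of 4.11, 6.14 and 7.41 (lowest, median and highest) in basal mice and of 8.57, 9.94 and 10.3 in clamped mice. Every clamped array lay above every basal array, and Igfbp1 rose by 3.81 ± 0.36 (14.1-fold, adjusted p = 7.8e-09). G6pc, the catalytic subunit of glucose-6-phosphatase that releases free glucose, had basal values of 7.26, 8.0 and 8.44 and clamped values of 3.85, 5.30 and 8.54. Clamped replicate 4 lay above every basal array and the other 6 clamped arrays lay below every basal array. G6pc fell by 2.44 ± 0.53 on the log2 scale (5.42-fold lower, adjusted p = 0.00231), but did not pass without the acinar-rich arrays (-2.57, adjusted p = 0.0866) or in the exact rank sum test. Pck1, the gluconeogenic phosphoenolpyruvate carboxykinase, had values of 10.9, 11.1 and 11.3 in basal and of 10.8, 11.1 and 11.3 in clamped mice, with a difference of -0.06 ± 0.10 (adjusted p = 0.838). The groups overlapped throughout for Pck1, and its 95% interval ran from -0.27 to 0.16. Slc2a2, the glucose transporter GLUT2, fell by 1.15 ± 0.21 (2.22-fold lower), with all 7 clamped arrays below the basal ones. Of 18 measured genes of glucose output 2 rose (Tat, a tyrosine aminotransferase, 0.67 ± 0.16, and the coactivator Crebbp, 0.33 ± 0.08) and 2 fell (G6pc and Slc2a2). Their median difference was 0.00, against -0.02 over all genes tested. In the fit that left out the high-numbered basal mice, neither Tat (0.41) nor Crebbp (0.30) passed.

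Clamped replicate 4 was the clamped array nearest to the basal mice for several of these genes, which were picked out after their values were seen. It was the highest clamped array for G6pc (8.54), Slc2a2 (8.17) and G0s2 (5.93), and the lowest for the glycolytic regulator Pfkfb3 (4.92). It was also the highest for Pck1 (11.3), but there the groups overlapped, so that does not make it the nearest to basal. For Igfbp1, however, it was the highest clamped array (10.3) and so the farthest from basal. At the other end, clamped replicate 6 had the lowest clamped value of G6pc (3.85) and Slc2a2 (5.86).

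Insulin signalling genes moved in both directions. Of 22 measured members 3 rose and 3 fell, against 4.66% and 4.09% of all genes, with a median of 0.05. Rictor, a defining subunit of mTOR complex 2, rose by 0.71 ± 0.16, the phosphatase Ptpn1, which removes phosphate from the insulin receptor, by 0.82 ± 0.20, and the glycogen synthase kinase Gsk3b by 0.39 ± 0.11. Deptor, an inhibitor of mTOR, fell by 0.65 ± 0.14, the substrate Irs1 by 0.85 ± 0.24 and Mtor by 0.26 ± 0.08. Irs2, the other main hepatic receptor substrate, had values of 3.85, 5.04 and 5.67 in basal and of 4.82, 5.76 and 6.61 in clamped mice. The groups overlapped, and the difference of Irs2 was 0.90 ± 0.31 (adjusted p = 0.0652), which passed without basal replicate 1 (1.02) or clamped replicate 6 (1.07). The receptor gene Insr differed by 0.10 ± 0.10 (adjusted p = 0.617) and Foxo1 by 0.05 ± 0.12 (adjusted p = 0.889). Without the high-numbered basal mice the calls of all 3 risen members were lost, and without the acinar-rich arrays 1 member rose and 1 fell. Gsk3b did not pass without basal replicate 5 or 6 (0.35 each), Irs1 without basal replicate 5 or 6 or clamped replicate 5 or 7 (-0.80 to -0.68), and Mtor without any 1 of 10 arrays (-0.26 to -0.21).

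Among 16 measured genes of glycolysis and glycogen, 3 rose and 2 fell. Pfkfb3, whose product makes the activator of phosphofructokinase, had basal values of 2.89, 3.87 and 4.38 and clamped values of 4.92, 5.65 and 5.84. The groups did not overlap, and Pfkfb3 rose by 1.84 ± 0.27 (3.58-fold, adjusted p = 1.53e-05). Pgm2, a phosphoglucomutase, rose by 1.31 ± 0.17 and Pfkfb2, a relative of Pfkfb3, by 0.96 ± 0.16, again with no overlap. Pklr, the liver pyruvate kinase, fell by 1.06 ± 0.19, and Pygl, the liver glycogen phosphorylase, by 0.67 ± 0.15. Pklr (-0.76, adjusted p = 0.0834) and Pygl (-0.55) did not pass without the high-numbered basal mice, while all 3 rises did.

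Lipid genes mostly fell where they changed. The largest fall of any called gene was that of G0s2, the inhibitor of adipose triglyceride lipase. G0s2 had values of 7.42, 7.73 and 8.04 in basal and of 4.46, 4.70 and 5.93 in clamped mice, so that the highest clamped array lay more than 1 log2 unit below the lowest basal one, and it fell by 2.91 ± 0.19 (7.52-fold lower, adjusted p = 1.45e-12). Of 17 measured lipid droplet genes 7 fell and 0 rose, with a median of -0.34 against -0.02 over all genes. Fitm1 and Fitm2, which help lipid droplets form at the endoplasmic reticulum, fell by 1.48 ± 0.29 and 0.95 ± 0.15, the lysosomal lipase Lipa by 0.67 ± 0.12, and the droplet coat protein Plin2 by 0.64 ± 0.19. Lipe and Mgll, lipases of diacylglycerol and monoacylglycerol, were the other called members. With the high-numbered basal mice left out 3 of the 7 passed (4 without the acinar-rich arrays), and neither Fitm1 (-0.98) nor Plin2 did. Plin2 also lost its call without basal replicate 1 or clamped replicate 1, 3 or 7 (-0.59 to -0.53).

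The lipogenic genes did not rise. Of 19 measured members 6 fell and 0 rose (median -0.15). Srebf1, which encodes SREBP-1 and is known as a target of insulin, had basal values of 4.54, 4.68 and 5.54 and clamped values of 3.61, 3.92 and 4.36. All clamped arrays lay below all basal ones, and Srebf1 fell by 0.82 ± 0.16 (1.76-fold lower, adjusted p = 4.47e-04). Gpam, which adds the first fatty acid to glycerol-3-phosphate, fell by 0.82 ± 0.19, the acetyl-CoA synthetase Acss2 by 0.80 ± 0.19 and the desaturase Fads1 by 0.52 ± 0.12. The elongase Elovl5 and the desaturase Fads2 were the other called members. With the high-numbered basal mice left out, Srebf1 was still called, but Gpam (-0.85), Acss2 (-0.79) and Fads1 (-0.47) were not, and 2 of the 6 members passed, as did 2 without the acinar-rich arrays.

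Fatty acid oxidation genes and targets of PPARA gave the largest share of falls among the pathway lists. Of 26 measured members 15 fell and 1 rose, with a median of -0.43. Acot4, a peroxisomal thioesterase, had basal values of 4.01, 5.34 and 5.66 and clamped values of 2.80, 3.34 and 4.28, and fell by 1.64 ± 0.22 (3.12-fold lower, adjusted p = 3.53e-06). In 6 of 7 clamped mice Acot4 was below every basal value. The cytosolic thioesterase Acot1 fell by 1.50 ± 0.26, the pantetheinase Vnn1 by 1.23 ± 0.22, the ketone body enzyme Bdh1 by 0.94 ± 0.13, the transcription factor Creb3l3 by 0.58 ± 0.09 and the medium-chain dehydrogenase Acadm by 0.48 ± 0.09. Ppara itself fell by 0.44 ± 0.11. Cpt1a, the gate for long-chain fatty acids into mitochondria, fell by 0.34 ± 0.11, but lost its call without any 1 of 6 single arrays (-0.35 to -0.27). The member that rose was Pdk4, which blocks pyruvate dehydrogenase (1.04 ± 0.25), and its call was lost without the high-numbered basal mice (0.84), without the acinar-rich arrays (1.01) and with the acinar level as a term (0.77). In the fit that left out the high-numbered basal mice, 14 members fell, and without the acinar-rich arrays 5 did. Outside this list, Abcd2, a peroxisomal fatty acid transporter, fell by 2.07 ± 0.37 and the endothelial lipase gene Lipg by 1.89 ± 0.34, and neither passed without the acinar-rich arrays (-1.88 and -1.80). For Lipg 1 clamped array lay above every basal array, and it did not pass in the exact rank sum test (adjusted p = 0.196).

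**Figure D2:**
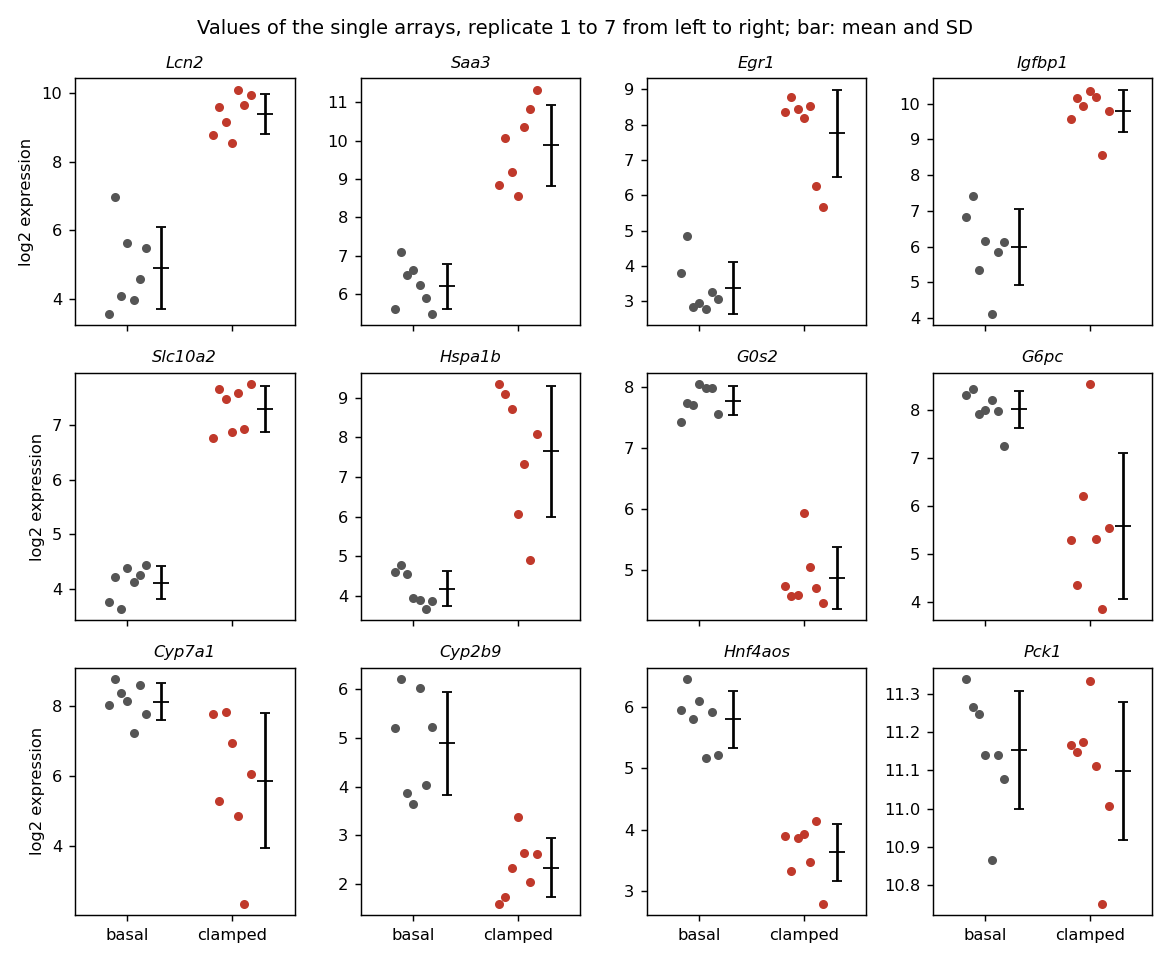
Log2 expression of 12 genes in each array, basal in grey and clamped in red, with replicate numbers from left to right and the mean and SD of each group as a bar beside the points. Each panel has its own vertical axis, which does not start at 0. For Lcn2, Saa3, Egr1, Igfbp1, Slc10a2 and Hspa1b all clamped points lie above the basal ones, for G0s2, Cyp2b9 and Hnf4aos they lie below, for G6pc and Cyp7a1 they spread widely, and for Pck1 they overlap.

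Several transcripts of bile acid enzymes fell, while that of the ileal bile acid transporter rose. Of 20 measured genes of bile acid synthesis and transport 7 fell and 1 rose (median -0.28), and among the synthesis genes not called were Cyp27a1, Cyp7b1, Akr1d1, Acox2, Hsd17b4 and Slc27a5. Cyp7a1, the hydroxylase that limits the rate of bile acid production, had basal values of 7.22, 8.13 and 8.76 and clamped values of 2.35, 6.07 and 7.81. In 5 of 7 clamped mice it was below every basal value, and Cyp7a1 fell by 2.25 ± 0.53 (4.76-fold lower, adjusted p = 0.00449). Cyp8b1, the sterol 12-alpha-hydroxylase that sets the share of cholic acid, fell by 1.54 ± 0.33, the steroid dehydrogenase Hsd3b7 by 0.85 ± 0.12, the racemase Amacr by 0.78 ± 0.16 and Klb, the co-receptor through which FGF signals reach hepatocytes, by 1.31 ± 0.25. The phospholipid exporter Abcb4 and the bile acid importer Slc10a1 (-0.45 ± 0.13) were the other falls, and Baat, which joins bile acids to amino acids, rose by 0.40 ± 0.11. Clamped replicate 6 was the lowest array for Cyp7a1 (2.35) and Cyp8b1 (5.50), without which Cyp7a1 differed by -1.67 and Cyp8b1 by -1.12, both still called. With the acinar-rich arrays left out 2 of the 7 fell, and Cyp7a1 (-2.36), Cyp8b1 (-1.47), Klb (-1.17) and Slc10a1 did not pass. Slc10a1 lost its call without basal replicate 6 or clamped replicate 6 or 7 (-0.42 to -0.31), and Baat without basal replicate 4, 5 or 7 or clamped replicate 7 (0.35 to 0.36).

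Slc10a2, the apical sodium-dependent bile acid transporter known from ileum and bile duct cells, was outside that list and was among the largest rises. Its values were 3.63, 4.22 and 4.44 in basal and 6.76, 7.48 and 7.75 in clamped mice. The gap between the highest basal and the lowest clamped array of Slc10a2 was wider than the range within either group, and it rose by 3.18 ± 0.25 (9.07-fold, adjusted p = 1.5e-10). Among markers of cholangiocytes, the bile duct cells, 1 of 6 measured rose (Sox9, 1.37 ± 0.28, not called without the high-numbered basal mice at 0.70). The list means of these markers were 1.59 to 1.97 in basal and 1.69 to 2.17 in clamped arrays. In whole tissue, more cells of a type and more RNA per cell cannot be told apart.

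Cholesterol synthesis showed little. Of 17 measured members 0 rose and 2 fell, Sc5d (-0.43 ± 0.11), a late enzyme of the pathway, and the sterol carrier Stard4 (-0.54 ± 0.17), while the median was 0.16. Stard4 lost its call without any 1 of 7 single arrays (-0.55 to -0.45), and Sc5d without the acinar-rich arrays (-0.32).

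Steroid and drug metabolism held single large changes within families that mostly did not pass. Of 57 cytochrome P450 genes of families 1 to 3, 3 rose and 3 fell (median -0.07), close to the 4.66% and 4.09% of all genes tested. Cyp2b9, a P450 that is higher in female mice, had basal values of 3.64, 5.19 and 6.20 and clamped values of 1.60, 2.34 and 3.38. The groups of Cyp2b9 did not overlap, it fell by 2.54 ± 0.57 (5.82-fold lower, adjusted p = 0.00292), and it did not pass without the acinar-rich arrays (-2.17). Cyp2u1 fell by 1.45 ± 0.28, and Cyp2d13 was the other fall. Cyp2b10, the classic target of the nuclear receptor CAR, rose by 1.73 ± 0.40 from a low basal level (0.71, 1.13 and 1.67 in basal, 1.29, 2.45 and 4.54 in clamped mice), while Nr1i3, the gene of CAR itself, fell by 1.24 ± 0.22. Cyp2c70, which makes muricholic acids in mice, rose by 1.28 ± 0.17 and Cyp3a13 by 1.07 ± 0.16, each with no overlap between groups. The steroid dehydrogenases Hsd3b2 and Hsd3b3 fell by 2.14 ± 0.38 and 1.79 ± 0.35. With repeated quantile normalization 3 P450 genes rose and 7 fell. Without the high-numbered basal mice 3 rose and 5 fell, and without the acinar-rich arrays 2 rose and 1 fell. Of 45 transferases of phase II metabolism 4 rose and 5 fell, of 20 retinoid genes 3 fell, and of 21 genes of the urea cycle and amino acid catabolism 3 fell. These 3 lists had 4, 2 and 1 calls without the high-numbered basal mice and 3, 1 and 0 without the acinar-rich arrays.

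Hepatocyte transcription factors moved in both directions, 3 of 19 measured members up and 6 down (median -0.21). The antisense transcript Hnf4aos fell by 2.16 ± 0.25 (4.48-fold lower, adjusted p = 3.58e-07), from 5.16, 5.91 and 6.45 in basal to 2.80, 3.87 and 4.15 in clamped mice. Hnf4a, the gene it overlaps and a main regulator of hepatocyte identity, rose by 0.38 ± 0.11 (from 8.23, 8.46 and 8.66 to 8.70, 8.82 and 9.02). All clamped arrays lay below all basal ones for Hnf4aos and above them for Hnf4a. The call of Hnf4a was lost without the high-numbered basal mice (0.31) and without the acinar-rich arrays (0.36), that of Hnf4aos in neither, and these fits gave 1 rise and 4 falls, and 1 rise and 5 falls, in the list. Foxa3 rose by 0.84 ± 0.19, the nuclear receptor Nr2f2 fell by 1.14 ± 0.16 and Cebpa, a factor of the mature hepatocyte, by 0.56 ± 0.10. Of 12 hepatocyte markers 2 rose (Fgb and Tat) and 0 fell, and without the high-numbered basal mice 0 were called. Their array means were 9.20 to 9.78 in basal and 9.42 to 9.82 in clamped mice, and albumin (Alb) differed by 0.13 ± 0.08 (adjusted p = 0.413).

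The acute phase genes rose nearly as a whole. Of 25 measured members 23 rose and 0 fell, with a median of 0.91. For 22 of the 25 the groups did not overlap, against 2.55% of all genes tested. The promoter of Lcn2, the gene with the largest rise in these mice, is shown because it holds a match to the C/EBP site TTGCNNAA (capitals), and C/EBP proteins are known drivers of acute phase genes. The window lies at chr2:32387690-32387989 (GRCm38.p6, RefSeq, minus strand), and the match at -216 to -209 from the start.
Lcn2: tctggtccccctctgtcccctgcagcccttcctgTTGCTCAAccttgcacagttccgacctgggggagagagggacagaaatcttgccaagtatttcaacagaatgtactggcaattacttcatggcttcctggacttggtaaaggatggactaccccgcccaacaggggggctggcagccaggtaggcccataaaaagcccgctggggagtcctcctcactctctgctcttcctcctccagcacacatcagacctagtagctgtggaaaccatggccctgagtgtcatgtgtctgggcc
On either strand TTGCNNAA was found in 11 of 22 windows of the 19 called acute phase genes with a promoter entry (50%) and in 10.3% of all 20520 windows. Over all risen genes it was in 10.4% of windows and over all fallen genes in 12.1%. Of 9 motifs counted it had the highest share in the acute phase windows. TGTTTTG, the heat shock pattern TTCNNGAA and the STAT pattern TTCNNNGAA were in 22.7% of them each. These shares were not tested.

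Lcn2, the lipocalin that withholds iron from bacteria, had basal values of 3.55, 4.58 and 6.97 and clamped values of 8.53, 9.59 and 10.1. The lowest clamped array lay above the highest basal array, and Lcn2 rose by 4.50 ± 0.38 (22.6-fold, adjusted p = 8.52e-10). Saa2, a serum amyloid A protein, rose by 3.79 ± 0.42 (13.8-fold), from 5.02, 6.87 and 9.38 to 10.4, 10.5 and 10.9. Basal mice differed widely in Saa2 while clamped mice hardly did. Saa3, a relative made in several tissues, rose by 3.67 ± 0.46 and the orosomucoid Orm2 by 3.26 ± 0.40. Steap4, a metalloreductase, rose by 2.47 ± 0.25 and Serpina3n, a protease inhibitor, by 1.13 ± 0.13, and neither overlapped between groups. Among abundant plasma proteins, haptoglobin (Hp) rose by 0.38 ± 0.08, hemopexin (Hpx) by 0.55 ± 0.08 and fibrinogen beta (Fgb) by 0.43 ± 0.10. Hamp, the iron hormone hepcidin, differed by 0.44 ± 0.19 (adjusted p = 0.177), and A2m was the other member that did not pass. Without the high-numbered basal mice 18 members rose, not Fgb (0.27), and without the acinar-rich arrays 22 did.

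Zinc and clotting genes rose where they changed, and iron and heme genes moved in both directions. Hmox1, the enzyme that breaks down heme, had basal values of 5.87, 6.25 and 6.61 and clamped values of 7.82, 8.50 and 9.10, and rose by 2.27 ± 0.22 (4.81-fold, adjusted p = 1.54e-08). Of 20 measured iron and heme genes 4 rose and 3 fell (median -0.10). The transferrin receptor Tfrc rose by 0.85 ± 0.19, the zinc and iron importer Slc39a14 by 1.25 ± 0.16, and Alas1, the first enzyme of heme synthesis, fell by 0.76 ± 0.15. The iron transporter Slc11a2 also rose, and Tmprss6, which restrains hepcidin (-0.43 ± 0.10), and the iron-regulatory protein Aco1 (-0.42 ± 0.11) also fell. Of 11 genes of metallothioneins and zinc 5 rose and 0 fell, Mt1 by 1.20 ± 0.17, Mt2 by 1.19 ± 0.15 and the zinc exporter Slc30a5 by 1.45 ± 0.17, each without overlap. Of 26 coagulation and complement genes 6 rose and 0 fell, led by thrombomodulin (Thbd, 1.56 ± 0.18), protein S (Pros1, 0.63 ± 0.10) and C4b (0.54 ± 0.09). Tfrc (0.49), Tmprss6 and Aco1 were not called without the high-numbered basal mice. In that fit 2 iron and heme genes rose and 1 fell, and 3 coagulation and complement genes rose. Without the acinar-rich arrays 4 iron and heme genes rose and 1 fell. With repeated quantile normalization 5 coagulation and complement genes rose and 1 fell.

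Some genes of the cytokine pathways known to drive acute phase genes also rose. Of 28 members of interleukin 1 and interleukin 6 signalling 13 rose and 1 fell (median 0.55). Il6, its receptor Il6ra, Osm, Lif and Tnf were among the members that did not pass. The receptor Il1r1 had values of 6.56, 7.46 and 7.71 in basal and of 9.14, 9.37 and 9.66 in clamped mice, and rose by 2.15 ± 0.18 (4.43-fold, adjusted p = 8.52e-10). The cytokine Il1b rose by 2.65 ± 0.29 from a low basal level (1.57, 2.50 and 2.86 to 3.99, 4.71 and 5.78), and Il1rn, the receptor antagonist, by 1.50 ± 0.30. Both ligand and receptor thus lay higher in every clamped than in every basal array. Osmr, the oncostatin M receptor, rose by 1.86 ± 0.25, Socs3, the feedback inhibitor of STAT3, by 2.25 ± 0.32, Stat3 by 0.82 ± 0.12 and Cebpd by 1.09 ± 0.14. The member that fell was the co-receptor Il1rap (-0.86 ± 0.21; -1.31 without the high-numbered basal mice). Both without those mice and without the acinar-rich arrays 9 members rose and 1 fell. Il1rn did not pass without the high-numbered basal mice (1.35).

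In the Toll-like receptor and NF-kappaB list 12 of 24 measured members rose and 0 fell (median 0.61). Cd14, the co-receptor for lipopolysaccharide, rose by 2.00 ± 0.26 (1.79, 2.71 and 3.27 to 3.85, 4.77 and 6.02), the NF-kappaB partner Bcl3 by 1.82 ± 0.25, the subunit Rel by 1.25 ± 0.21, the nuclear inhibitor Nfkbiz by 1.17 ± 0.20 and the adhesion molecule Icam1 by 1.85 ± 0.42. Nfkbia, the cytosolic inhibitor of NF-kappaB, differed by 0.43 ± 0.15 (adjusted p = 0.0608) and passed without basal replicate 4 or 6 (0.47 each) or clamped replicate 4 (0.48) or 6 (0.51). With the high-numbered basal mice left out, 5 members rose, not Rel (0.73) or Icam1 (1.76), and without the acinar-rich arrays 6 did.

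The promoter of Cxcl1, a neutrophil chemokine, is shown because it holds 2 matches to the NF-kappaB pattern GGGNNTTTC (capitals, either strand, no overlap), at -88 to -80 and -71 to -63 from the start, at chr5:90890995-90891294 (GRCm38.p6, RefSeq, plus strand).
Cxcl1: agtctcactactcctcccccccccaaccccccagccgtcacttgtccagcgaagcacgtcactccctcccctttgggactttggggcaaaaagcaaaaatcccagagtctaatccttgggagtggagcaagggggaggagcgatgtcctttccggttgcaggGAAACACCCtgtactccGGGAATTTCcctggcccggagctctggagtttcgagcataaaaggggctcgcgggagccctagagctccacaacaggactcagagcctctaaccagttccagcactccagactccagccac
The pattern was found in 6 of 14 windows of the called Toll-like receptor and NF-kappaB genes (42.9%), in 6.14% of the windows of all risen genes and in 4.24% of all windows. Those 14 windows came from 10 genes. Cxcl1 belongs to the chemokine list and not to that list, and the share in chemokine windows was not counted.

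Chemokines rose for 6 of 26 measured members, with 0 falls. Cxcl1 had basal values of 4.50, 5.51 and 7.56 and clamped values of 8.26, 8.90 and 9.44, and rose by 3.17 ± 0.35 (9.01-fold, adjusted p = 1.2e-07), with no overlap. Cxcl13, a B cell chemokine, rose by 3.18 ± 0.52 and Cxcl2, a relative of Cxcl1, by 1.86 ± 0.40. Ccl2, Ccl3 and Ccl6 were the other called members. In the fit that left out the high-numbered basal mice, 2 rose and 1 fell, and Cxcl2 (1.57) was not called, nor was it without the acinar-rich arrays (1.90), when 3 members rose. Interferon-stimulated genes gave 0 rises and 1 fall (Ddx58) of 21 measured.

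Neutrophil markers rose for 8 of 17 measured members, with 0 falls and a median of 0.55. S100a8 and S100a9, the calcium-binding proteins that fill neutrophil cytoplasm, rose by 3.58 ± 0.37 (11.9-fold) and 2.82 ± 0.25 (7.08-fold). S100a8 had basal values of 2.64, 3.15 and 5.08 and clamped values of 5.86, 7.03 and 8.46, with no overlap. Retnlg rose by 1.74 ± 0.24, the collagenase Mmp8 by 1.58 ± 0.25 and the growth factor receptor Csf3r by 1.03 ± 0.16. Genes of neutrophil granules such as Mpo, Elane, Ltf, Camp and Ngp did not pass. The array means of the list were 1.61 to 2.18 in basal and 2.35 to 3.23 in clamped mice, and 7 members rose without the high-numbered basal mice and 5 without the acinar-rich arrays.

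Other cells of the liver changed in single genes. Of 13 Kupffer cell markers, the resident macrophages, 4 rose: Marco by 1.62 ± 0.34, Timd4 by 0.77 ± 0.17, Adgre1 by 0.73 ± 0.21 and C1qb by 0.51 ± 0.13. Without the high-numbered basal mice 1 rose (Timd4), without the acinar-rich arrays 0 did, and Adgre1 lost its call without clamped replicate 5 (0.57). Of 14 markers of sinusoidal endothelium, Lyve1, a hyaluronan receptor, rose by 1.35 ± 0.16 (5.19, 5.82 and 6.14 to 6.92, 7.14 and 7.31), while Kdr, the main receptor for VEGF, fell by 1.09 ± 0.20 (5.54, 5.72 and 6.08 to 3.36, 4.87 and 5.25). Both separated the groups completely, in opposite directions. Dnase1l3, a secreted nuclease, fell by 0.71 ± 0.16. Without the high-numbered basal mice 1 endothelial marker rose and 4 fell. Of 8 monocyte markers 2 rose (Plac8 and Fn1), of 6 adipocyte markers 1 rose (Fabp4, 1.08 ± 0.23, not called without the high-numbered basal mice at 0.68), and of 14 acinar markers 1 fell (Try5). Stellate cell (12 measured), T and NK cell (11), B cell (6), erythroid (2) and skeletal muscle markers (7) gave 0 calls. The acinar gene Ctrb1 differed by -4.45 ± 1.68 (adjusted p = 0.101) and passed without basal replicate 3 (-5.24) or clamped replicate 3 (-5.66).

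Immediate early genes, which are transcribed within minutes of a stimulus without new protein synthesis, rose for 16 of 25 measured members and fell for 1, with the highest median of the pathway lists (1.02). Egr1, a zinc finger factor, had basal values of 2.79, 3.06 and 4.84 and clamped values of 5.68, 8.37 and 8.78, and rose by 4.38 ± 0.41 (20.8-fold, adjusted p = 7.41e-09). Clamped replicates 6 and 7 (6.26 and 5.68) lay well below the other 5, which were at 8.17 or higher, but above all basal arrays. Btg2, an antiproliferative gene, rose by 3.46 ± 0.31, Jun by 2.95 ± 0.30, Junb by 2.50 ± 0.27, Fos by 2.42 ± 0.37 and Klf6 by 1.69 ± 0.24. Myc fell by 0.61 ± 0.19 (adjusted p = 0.0379), a call that was lost without any 1 of 7 single arrays (-0.62 to -0.46). With the high-numbered basal mice left out, 14 members rose, and without the acinar-rich arrays 12 did.

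Of 17 dual-specificity phosphatases, a family of which some members switch off MAP kinases, 4 rose and 1 fell. Dusp1 rose by 1.41 ± 0.22 and Dusp6, the phosphatase of ERK, by 1.21 ± 0.24, Dusp8 and Dusp11 were the other rises, and Dusp22 fell. In the fit that left out the high-numbered basal mice, 1 of the 4 rose, not Dusp6 (0.83). Among 19 growth arrest and p53 target genes 7 rose and 0 fell. Cdkn1a, the cell cycle inhibitor p21, had basal values of 3.56, 4.55 and 5.87 and clamped values of 7.01, 8.02 and 8.78, and rose by 3.18 ± 0.30 (9.10-fold, adjusted p = 7.8e-09). Gadd45b and Gadd45g rose by 2.24 ± 0.28 and 2.38 ± 0.43, the kinase Plk3 by 1.80 ± 0.26 and the death receptor Fas by 0.97 ± 0.20. Leaving out the high-numbered basal mice reduced the 7 to 4, without Fas. The cell cycle genes themselves gave 1 call of 20 measured, a rise of the cyclin Ccne1 (1.05 ± 0.22), with a median of 0.00.

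Glucocorticoid receptor targets rose for 13 of 20 measured members, with 0 falls and a median of 0.87. This list shares Igfbp1, Mt1, Mt2, Cdkn1a, Tat, Dusp1, Gadd45g, Ddit4, Per1 and Sult1e1 with other lists, so 10 of its 13 risen members are counted elsewhere too. The 3 others were Fkbp5, Sgk1 and Zbtb16: the co-chaperone Fkbp5 rose by 1.13 ± 0.19 without overlap (3.85, 4.70 and 5.10 to 5.22, 5.67 and 6.20), the kinase Sgk1 by 0.52 ± 0.12 and the transcription factor Zbtb16 by 1.58 ± 0.38. Zbtb16 (1.26) was not called without the high-numbered basal mice, when 9 members rose. The receptor gene Nr3c1 and its target Tsc22d3 did not pass.

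Cytosolic heat shock genes rose for 16 of 19 measured members, with 0 falls and a median of 0.78. The promoter of Chordc1, a co-chaperone of HSP90, is shown because 5 matches to the paired heat shock units GAANNTTC and TTCNNGAA (capitals) lie at its start, at chr9:18292017-18292316 (GRCm38.p6, RefSeq, plus strand). Neighbouring matches share 3 bases, and the fifth stands alone.
Chordc1: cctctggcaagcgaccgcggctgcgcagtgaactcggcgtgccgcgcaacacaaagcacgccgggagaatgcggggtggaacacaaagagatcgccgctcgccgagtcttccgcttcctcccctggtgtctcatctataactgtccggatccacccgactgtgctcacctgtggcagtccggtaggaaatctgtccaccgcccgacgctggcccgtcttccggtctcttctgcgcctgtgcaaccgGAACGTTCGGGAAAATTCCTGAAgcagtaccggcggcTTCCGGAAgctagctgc
The matches run from -4 to 18 and from 33 to 40. Both patterns read the same on both strands. GAANNTTC was found in 9 of 17 windows of the called heat shock genes (52.9%) against 6.96% of all windows, and TTCNNGAA in 5 of 17 (29.4%) against 7.80%. These 17 windows came from 14 genes, and those of Hsph1 overlap, so its matches were counted more than once.

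Hspa1b, an inducible HSP70, had basal values of 3.68, 3.95 and 4.78 and clamped values of 4.92, 8.08 and 9.33, and rose by 3.46 ± 0.49 (11-fold, adjusted p = 9.64e-06). All clamped mice were above all basal mice, but by very unequal amounts, with clamped replicates 4 and 6 (6.08 and 4.92) the nearest to basal. Hsph1, a nucleotide exchange factor of HSP70, rose by 1.25 ± 0.17, Chordc1 by 1.10 ± 0.16 and the co-chaperone Bag3 by 1.09 ± 0.17. Without the high-numbered basal mice 7 members rose, and without the acinar-rich arrays 11 did, with those 4 genes called both times.

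The unfolded protein response, by which the endoplasmic reticulum raises its chaperones, gave 16 rises and 0 falls of 23 measured members (median 0.69). Hspa5, the chaperone BiP, rose by 0.86 ± 0.18 (7.74, 7.83 and 8.26 to 8.14, 8.80 and 9.45), the disulfide isomerase Pdia3 by 0.73 ± 0.15, the co-chaperone Dnajb9 by 1.20 ± 0.25 and the transcription factor Xbp1 by 0.70 ± 0.16. This list depended more on the arrays used than the cytosolic one by count. With the high-numbered basal mice left out, 1 member rose, and Hspa5 (0.71), Pdia3 (0.53), Dnajb9 (0.91) and Xbp1 (0.60) were not called; without the acinar-rich arrays 3 members rose. The array means of the list were 7.14 to 7.39 in basal and 7.42 to 8.79 in clamped mice. Among 20 genes of ATF4 and the integrated stress response 6 rose and 1 fell. Ddit4, an inhibitor of mTOR complex 1, rose by 2.26 ± 0.32 (4.80-fold), Ppp1r15a, which reverses the translation block, by 1.43 ± 0.20, Chac1 by 1.26 ± 0.21, Ddit3 by 1.24 ± 0.22 and Atf4 by 0.58 ± 0.10. Shmt2 was the fall. In this list 4 members rose and 0 fell without the high-numbered basal mice, and 5 rose and 0 fell without the acinar-rich arrays. The amino acid synthesis targets of ATF4, such as Asns, Psat1 and Phgdh, did not pass.

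**Figure D3:**
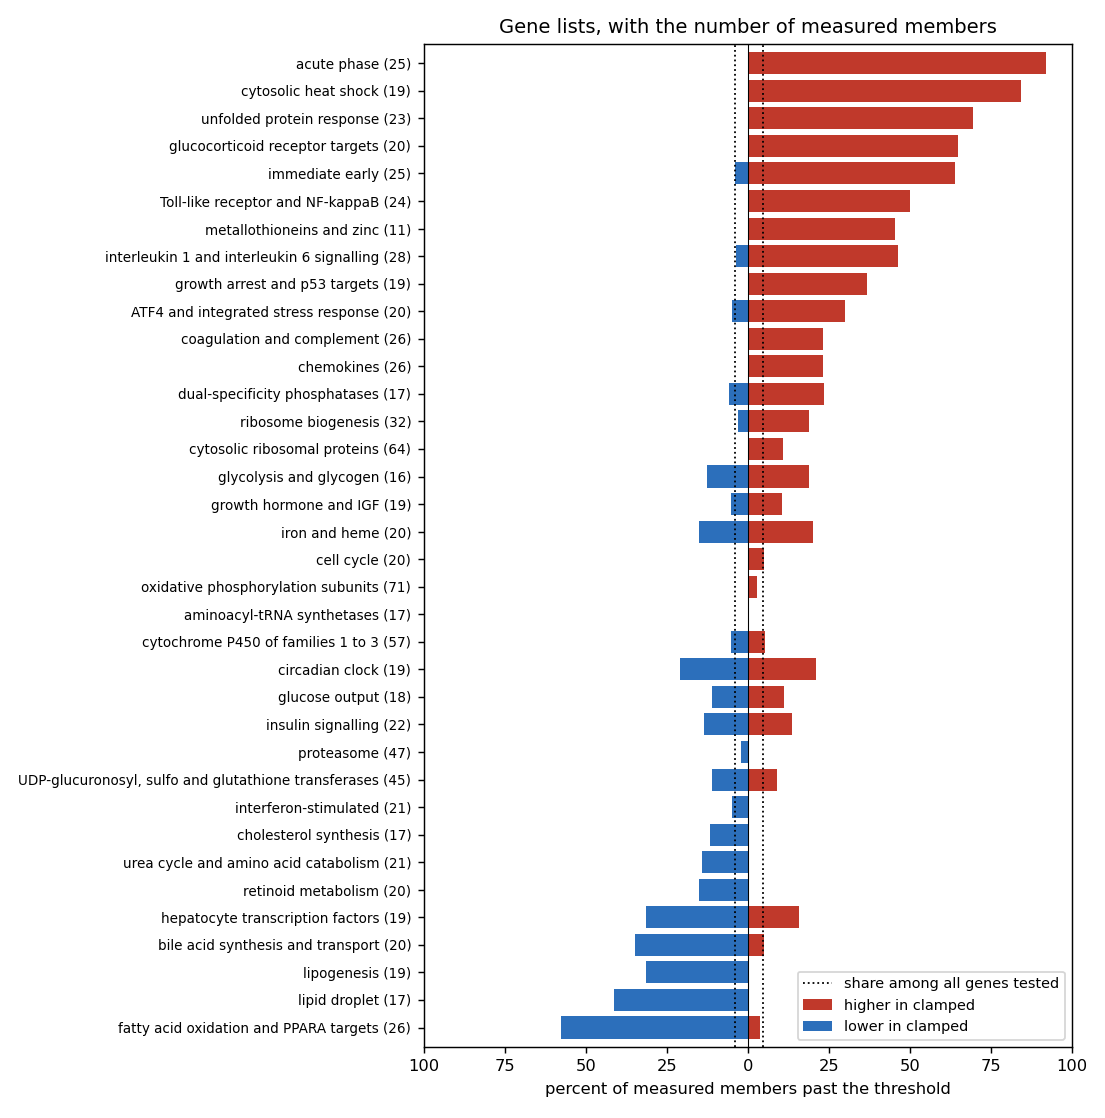
Percent of the measured members of each of 36 pathway lists that rose (red, to the right) or fell (blue, to the left), with the number measured in parentheses. Dotted lines mark the shares among all genes tested, 4.66% up and 4.09% down. Acute phase (23 of 25 rose) stands at the top and fatty acid oxidation and PPARA targets (15 of 26 fell) at the bottom. The members were chosen with earlier results of these data known.

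**Figure D4:**
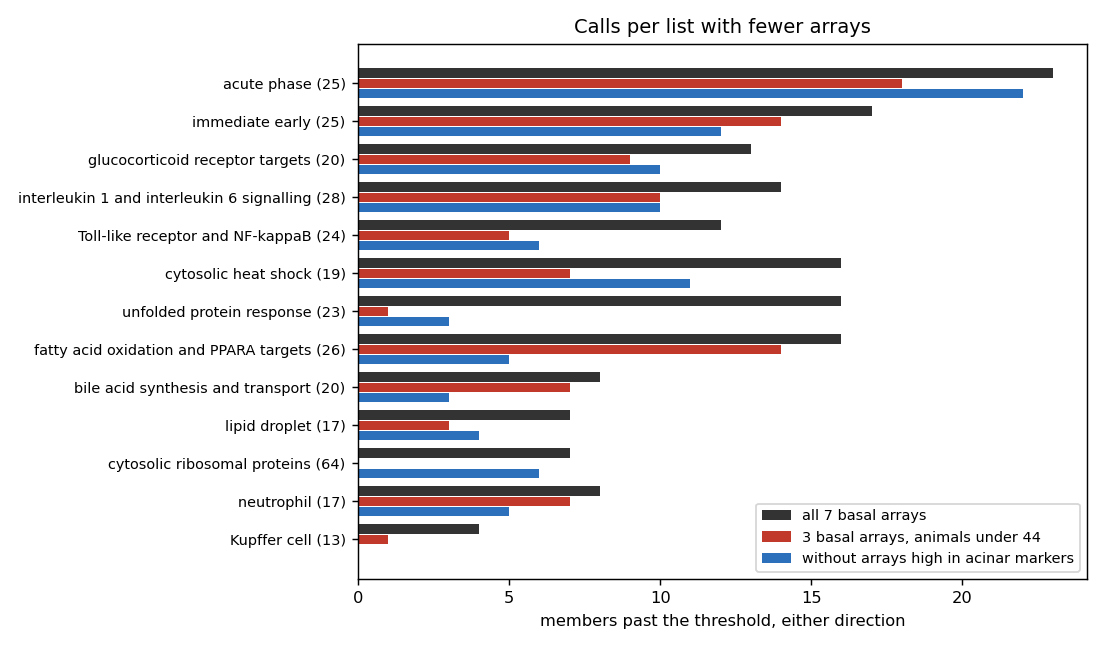
Number of called members, either direction, of 13 lists with all arrays (black), without the high-numbered basal mice (red) and without the acinar-rich arrays (blue). Acute phase keeps 18 and 22 of 23 calls, while the unfolded protein response goes from 16 to 1 and 3.

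Clock genes split evenly, with 4 rises and 4 falls of 19 measured. Nfil3, a repressor that opposes DBP, rose by 1.42 ± 0.23, Bhlhe40 by 1.07 ± 0.14 and Per1, which also answers to glucocorticoids, by 0.74 ± 0.19, and Cry1 was the other rise. The PAR-domain factors Tef and Dbp fell by 0.69 ± 0.15 and 0.73 ± 0.23, Per3 fell by 0.87 ± 0.16, and Hlf was the other fall. Nr1d1, the receptor REV-ERB alpha, differed by -0.75 ± 0.28 (adjusted p = 0.0886) and passed without clamped replicate 6 (-0.90). The call of Dbp was lost without any 1 of 10 single arrays (-0.75 to -0.59). Leaving out the high-numbered basal mice gave 2 rises and 2 falls, and leaving out the acinar-rich arrays gave 3 rises and 2 falls. Clamped mice were killed later than basal mice, and the part of the hour in these values was not tested.

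In the growth hormone and IGF list 2 of 19 measured members rose and 1 fell. Igfals, which keeps IGF1 in the circulation, had basal values of 7.06, 7.43 and 7.72 and clamped values of 4.25, 6.36 and 6.76, and fell by 1.27 ± 0.23 (2.41-fold lower, adjusted p = 2.59e-04; not called without the acinar-rich arrays, -1.16). Igfbp1 and the repressor Bcl6 (1.49 ± 0.32) rose. Basal mice spread widely in Bcl6 (4.42, 5.54 and 7.56), and 1 of 7 clamped arrays lay above all of them.

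Most housekeeping lists stayed close to the background shares or rested on few arrays. Of 64 cytosolic ribosomal proteins 7 rose and 0 fell, and of 71 oxidative phosphorylation subunits 2 rose. Rps13 had values of 8.0 to 8.21 in basal replicates 1 to 3 and of 6.29 to 6.65 in basal replicates 4 to 7, against 8.21 to 8.64 in clamped mice. Its rise of 1.26 ± 0.32 became 0.31 (adjusted p = 0.765) without the high-numbered basal mice and 1.98 with only those. Cox7b, a subunit of cytochrome c oxidase, showed the same split, with a rise of 1.54 ± 0.45 that became 0.04 and 2.66, and its call was lost without any 1 of basal replicates 4 to 7 (1.28 to 1.38). In the fit that left out the high-numbered basal mice, 0 ribosomal proteins and 0 oxidative phosphorylation subunits were called, and with repeated quantile normalization 2 oxidative phosphorylation subunits rose and 4 fell. Ribosome biogenesis stood above the background share of rises, with 6 rises and 1 fall of 32. It gave 0 and 1 without the high-numbered basal mice, and 5 and 1 without the acinar-rich arrays. In palm oil mice the list gave 7 and 0. The proteasome gave 0 and 1 of 47, and aminoacyl-tRNA synthetases 0 of 17.

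The same contrast in palm oil mice, which shares no animal with the water-gavaged mice but uses the same fit, gave 1678 called genes (7.57%), 835 up and 843 down. Genes called in the same direction in both numbered 1092, which is 56.3% of the calls in water-gavaged and 65.1% of those in palm oil mice, and 0 were called in opposite directions. No gene passed the test of the difference between the 2 clamp effects (limma, 0 of 22180, with 773 at an unadjusted p under 0.05). Without basal replicate 1 of the water-gavaged mice 1 gene did. The arrays of the basal palm oil mice split in the same way: 3 animals numbered 44 or higher had an interquartile range of 3.18 to 3.20, against 3.39 to 3.54 in the other 6, and acinar means of 7.89 to 9.44, against 1.79 to 8.04. The part of this split in the 1092 shared genes was not tested beyond leaving out the acinar-rich arrays, after which 374 were shared. Lcn2 rose by 4.40 ± 0.33 in palm oil mice, Egr1 by 4.50 ± 0.36, Igfbp1 by 3.80 ± 0.32, and G0s2 fell by 2.95 ± 0.17. Slc10a2 rose by 2.17 ± 0.22 there against 3.18 in water-gavaged mice, Osmr by 0.97 ± 0.22 against 1.86 and Slc30a5 by 0.61 ± 0.15 against 1.45. These differences between the 2 groups of mice did not pass (limma, adjusted p = 1 for each of the 3 genes). Myc differed by 0.33 in palm oil mice (adjusted p = 0.300) against -0.61. Acute phase genes rose for 23 of 25 members in palm oil mice too, heat shock genes for 10 of 19, unfolded protein response genes for 6 of 23, and PPARA targets and fatty acid oxidation genes fell for 12 of 26.

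**Figure D5:**
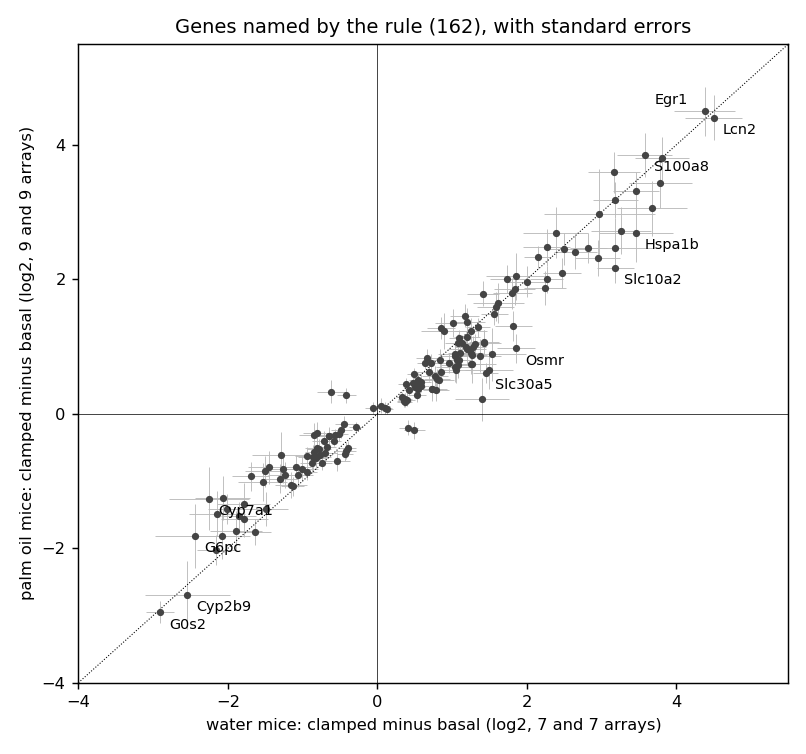
Clamped minus basal difference (log2) in water-gavaged mice (horizontal, 7 and 7 arrays) against that in palm oil mice (vertical, 9 and 9 arrays) for the 162 genes named by the rule, with standard errors and the line of equal values dotted. The genes were chosen for their values in water-gavaged mice, which places them farther from 0 on that axis. Slc30a5 (1.45 and 0.61) and Osmr (1.86 and 0.97) lie below the line on the side of the rises.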

How the data were processed

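Each mouse gave 1 Affymetrix Mouse Gene 2.1 ST array of liver RNA. The submitters' processing notes name Affymetrix Expression Console (1.3.0.187) and RMA, so the log2 values deposited by the authors are taken as RMA summaries; they were used as given. Differences of low signals are compressed on this scale, and the number of arrays limits the precision. Of 41345 probe sets 23521 had 1 gene symbol, 1814 had several and 16010 had none, and only the first were used. Where a gene had several probe sets (1082 genes), its brightest probe set on average across the 32 arrays stood for it, which left 22180 genes.

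Groups were taken from the sample titles. limma 3.58.1 in R 4.3.3 (lmFit and eBayes) was fitted to all 32 arrays with 1 mean for each of the 4 groups (28 residual degrees of freedom), and p-values were adjusted by Benjamini-Hochberg over all genes. The scripts were tested on simulated data. Single values per array were compared by exact permutation in SciPy 1.17.1. The members and gene lists were chosen with earlier results of these data known, so list counts are descriptions. Genes were named by a rule: the 15 largest rises and falls, up to 4 called members of each list by smallest p, 5 marker genes, a set of anchors, and the 5 called genes with the smallest interaction p. Further genes were named for their role, with their values known. Predicted genes and microRNAs were not named.

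Same-numbered clamped and basal mice did not deviate together (correlations from -0.36 to 0.04), and the fit did not pair them. These correlations cannot show whether the replicate numbers stand for a pairing in the design. Alternatives covered the choice of probe set, scaling, priors, array weights, the replicate block, a 1.3-fold minimum, a rank test and leaving out arrays.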

Additional observations from a re-analysis of the deposited data

Results flagged for a closer look

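Among 332 groups of 7 arrays tested for single arrays far from the rest (2 groups for each named gene), 29 held 1 array that stood apart by Dixon's test at its 95% critical value, where chance gives about 1 in 20 groups. All values are log2 expression.

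Clamped replicate 6 accounted for 8 of the 29. It stood apart for Igfbp1 (lowest, 8.570), Pfkfb2 (highest, 6.822), Alas1 (lowest, 8.197), Igfals (lowest, 4.254), Mt2 (highest, 10.970), Btg2 (lowest, 7.067), Plk3 (lowest, 7.623) and Nfil3 (lowest, 5.550). Igfbp1, Btg2, Plk3 and Nfil3 rose in clamped mice, so for these 4 genes the array lay toward the basal mice, and for the other 4 (Pfkfb2 and Mt2, which rose, and Alas1 and Igfals, which fell) it lay farther from them. Clamped replicate 4 stood apart for G0s2 (highest, 5.929) and Pfkfb3 (lowest, 4.924), metabolic genes for which it lay toward the basal mice. It also stood apart for Lipg (highest, 4.823), where it lay above every basal array (highest basal value 4.636). Clamped replicate 7 stood apart for Gpam (lowest, 5.367), Cyp2u1 (lowest, 2.262) and Atf4 (highest, 9.460). Single flags fell on clamped replicate 1 with Mt1 (lowest, 9.483), replicate 3 with Ctrb1 (highest, 11.089) and replicate 5 with Abcd2 (highest, 3.907).

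In basal mice, replicate 4 stood apart for Retnlg (highest, 2.591), Socs3 (lowest, 3.004) and Hp (highest, 11.349), replicate 7 for Thbd (lowest, 2.434), Per3 (lowest, 4.297) and Crebbp (lowest, 6.881), replicate 1 for Plin2 (highest, 7.953) and Nr1d1 (highest, 7.668), replicate 5 for Srebf1 (highest, 5.543) and Gadd45g (lowest, 2.583), replicate 3 for Lipg (lowest, 3.917) and replicate 6 for Dnajb9 (lowest, 5.649).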

How the results depend on the processing

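Counts of calls depended on the setting more than directions did. With the water-gavaged arrays fitted alone, so that the palm oil arrays did not enter the spread, 1320 genes passed (711 up, 609 down). Against 1940 called genes (1033 up, 907 down, 1092 shared with palm oil mice), the replicate block on water-gavaged arrays alone gave 1087 (588 up, 499 down), a minimum of 1.3-fold 259 (164 up, 95 down, 161 shared) and the exact rank sum test 1120 (590 up, 530 down). Leaving out basal animals numbered 44 or higher gave 908 (351 up, 557 down, 613 shared), leaving out acinar-rich arrays 993 (541 up, 452 down, 374 shared), and the acinar level as a term 681 rises. Leaving out single arrays gave 1517 to 1973 calls, 837 to 1082 up, 680 to 925 down, 989 to 1130 shared and 0 to 1 interaction calls. Of 166 named genes 157 were called, and 75 kept the call under all 29 alternatives. The call was lost by 66 with the 1.3-fold minimum, 47 without the higher-numbered basal animals, 43 without acinar-rich arrays, 30 in the rank sum test and 24 with the block. Leaving out basal animals numbered under 44 instead gave 2436 calls (1384 up, 1052 down), more than with all arrays. The cause was not tested.

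Among named genes, direction turned only for 5 that were not called. Pck1 ran from -0.103 to 0.003 without single arrays (0.003 without clamped replicate 6), and was 0.043 without basal animals numbered under 44 and 0.002 without acinar-rich arrays. Insr became -0.081, Foxo1 -0.053 and Hamp -0.105 without animals numbered 44 or higher. Foxo1 was also -0.013 with quantile normalization, from -0.013 (without clamped replicate 4) to 0.106 without single arrays, and -0.072 without acinar-rich arrays, and Alb was -0.038 with quantile normalization.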

Other observations

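Counts of calls by kind of gene are given without a test of their difference. Of 1926 long non-coding RNA genes 10 rose and 51 fell, of 80 small nucleolar RNAs 8 rose and 0 fell, of 478 microRNA genes 8 rose and 4 fell, and of 18961 protein-coding genes 974 rose and 842 fell. Among the small nucleolar RNAs, which were picked out after their values were seen, Snora73a rose by 1.26 ± 0.20, from 2.98, 3.41 and 3.66 (lowest, median and highest) to 4.39, 4.61 and 5.22, with no overlap between groups. Snord65 rose by 1.56 ± 0.28. Small nucleolar RNAs guide the modification of ribosomal RNA and lie in introns of other genes.

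Several large falls belonged to none of the lists. Apol7a, an apolipoprotein L, fell by 2.01 ± 0.25 (5.96, 6.36 and 6.80 in basal and 3.16, 4.68 and 5.05 in clamped mice), the F-box gene Fbxo21 by 1.86 ± 0.24, the potassium channel Kcnk5 by 1.78 ± 0.31 and the membrane protein Tm4sf1 by 1.69 ± 0.25. In all 7 clamped mice each of these 4 genes lay below every basal value. Clec2h, a C-type lectin, fell by 2.08 ± 0.38, with 6 of 7 clamped mice below. Moxd1 rose by 2.97 ± 0.75, with clamped values spread from 2.32 to 7.92 and 5 of 7 clamped arrays above every basal one. Its call was lost without the high-numbered basal mice (2.94) and without the acinar-rich arrays (2.34). It also did not pass in the exact rank sum test (adjusted p = 0.0916).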
